A study of Mus musculus with 35 samples.

Results

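Neutrophil granule and receptor genes were followed in the mouse colon as a list of 10 genes named by symbol, out of 19908 genes measured. The list holds the calprotectin subunits S100a8 and S100a9, the granule genes Mmp8, Ngp, Camp and Ltf, and the receptor and surface genes Clec4e, Csf3r, Trem1 and Cd177. Each had 1 probe set on the array, and the values that follow are log2 signal unless a sentence says otherwise. Neutrophils are short-lived white blood cells made in the bone marrow. They store antimicrobial proteins in granules that are filled in sequence while the cell matures, so genes of early granules are transcribed in marrow precursors and largely silent in circulating cells. They enter the colon wall and lumen when its epithelium is injured, and calprotectin shed into stool is used clinically as a sign of gut inflammation.

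Total RNA from the colon of 35 C57BL/6N mice was hybridised to Affymetrix Mouse Gene 1.0 ST arrays. Each mouse had its own array, and the 7 groups held 5 mice each. Conventionally raised mice were wild-type or carried a Reg3a transgene, named after an antibacterial lectin that the gut secretes. No source used here gives the promoter or species of the transgene. Each genotype was either left untreated or given 3% dextran sulfate sodium (DSS), a polymer that injures the colon epithelium, in drinking water for 5 days followed by plain water, with colons taken at day 12. The remaining groups were axenic (germ-free) mice on the same DSS schedule. They had received flora from wild-type donors or flora from transgenic donors 3 weeks earlier, or were controls labelled as given DSS before a transfer of microbes, so that they may or may not have carried flora when colons were taken. The genotype of the axenic mice is not given, and a treatment label that mentions a transfer for the conventional mice was set aside in favour of the titles. Mice are named by the numbers in their titles (WT, TG, and CT for axenic controls), and no label gives cage, sex or array date.

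Genes of colon epithelium (mean of 9 genes, 10.66 to 11.82 over the mice) and smooth muscle (mean of 6 genes, 10.23 to 12.23) were both high in every mouse, so the samples were not epithelium alone. In such bulk tissue, fewer cells of a type and less RNA per cell cannot be told apart. The spread of signal within an array (SD over all genes) ranged from 1.64 to 2.03. It averaged 1.96 in recipients of wild-type flora and 1.73 in axenic controls, and the ranges of these groups did not overlap. Posterior Hox genes, which mark position along the gut, fell in 5 of 8 cases with DSS in wild-type mice, where the mean of the list went from 7.62 ± 0.44 (SD, n = 5) to 6.55 ± 0.20.

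All 10 genes were matched by symbol to the RefSeq table of promoters of the GRCm38.p6 build. The 150 bases before the annotated start of 7 of them are given 5′ to 3′ on the strand of the gene. They are the calprotectin pair, the 4 genes with a match to the first motif and, for contrast, Camp, which did not move with the others. Capitals mark matches on either strand to TTGCNNAA, a core of sites for C/EBP factors that act in the myeloid lineage, or to GAGGAA, a core of sites for Ets factors such as PU.1.
S100a8: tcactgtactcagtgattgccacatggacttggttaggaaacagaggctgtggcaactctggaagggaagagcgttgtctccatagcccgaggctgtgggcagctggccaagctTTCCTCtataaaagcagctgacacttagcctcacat
S100a9: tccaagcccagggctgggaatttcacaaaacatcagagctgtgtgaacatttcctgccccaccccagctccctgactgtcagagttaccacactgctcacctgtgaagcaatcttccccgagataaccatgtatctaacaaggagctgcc
Mmp8: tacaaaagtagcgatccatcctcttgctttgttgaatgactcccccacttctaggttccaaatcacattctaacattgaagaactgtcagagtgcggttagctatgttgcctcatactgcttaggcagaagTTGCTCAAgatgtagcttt
Ngp: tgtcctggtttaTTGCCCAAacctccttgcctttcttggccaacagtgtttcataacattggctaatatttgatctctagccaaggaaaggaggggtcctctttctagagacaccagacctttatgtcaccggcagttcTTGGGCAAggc
Ltf: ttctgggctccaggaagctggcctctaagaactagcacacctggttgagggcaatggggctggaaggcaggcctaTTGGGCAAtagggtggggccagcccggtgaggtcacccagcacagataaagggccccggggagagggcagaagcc
Clec4e: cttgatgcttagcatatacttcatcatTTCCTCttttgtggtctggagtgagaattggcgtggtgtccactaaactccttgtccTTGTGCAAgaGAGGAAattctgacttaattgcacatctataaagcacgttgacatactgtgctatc
Camp: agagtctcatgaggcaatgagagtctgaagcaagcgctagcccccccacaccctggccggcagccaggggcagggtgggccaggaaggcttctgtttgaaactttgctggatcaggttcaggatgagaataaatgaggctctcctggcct
These windows lie at chr3:90668921-90669070 (S100a8, plus strand), chr3:90695722-90695871 (S100a9, minus), chr9:7558279-7558428 (Mmp8, plus), chr9:110419658-110419807 (Ngp, plus), chr9:111019142-111019291 (Ltf, plus), chr6:123289872-123290021 (Clec4e, minus) and chr9:109849457-109849606 (Camp, minus). The C/EBP letters were found in 4 of the 10 windows (Mmp8, Ngp, Ltf and Clec4e) and in 5.46% of all 32851 RefSeq promoter windows of that length. The Ets letters were found in 3 of 10 (S100a8, Clec4e and Csf3r) and in 14.5% of all windows. S100a9 and Trem1, which moved closely with S100a8 across mice, had neither, and nor did Camp and Cd177, which did not move with it. Whether a match goes with moving together was not tested in these 10 genes. A match is a description of the letters and not evidence of a site.

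The levels fell into 3 patterns. S100a8, S100a9, Mmp8, Ngp, Ltf, Clec4e, Csf3r and Trem1 were low in all untreated mice and uneven between mice of most DSS groups. Ltf in DSS transgenic mice and axenic controls (SD 0.09 and 0.10) and Ngp in axenic controls (SD 0.14) were exceptions, as even as in untreated mice. Cd177 was higher in every DSS mouse of the conventional and flora recipient groups, whatever its S100a8, than in any axenic control. It passed the highest untreated mouse in 16 DSS mice. Untreated TG31 (9.80) and TG28 (9.97) were above some DSS mice, such as WT56 (9.66). Camp hardly moved in any group.

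**Figure D1:**
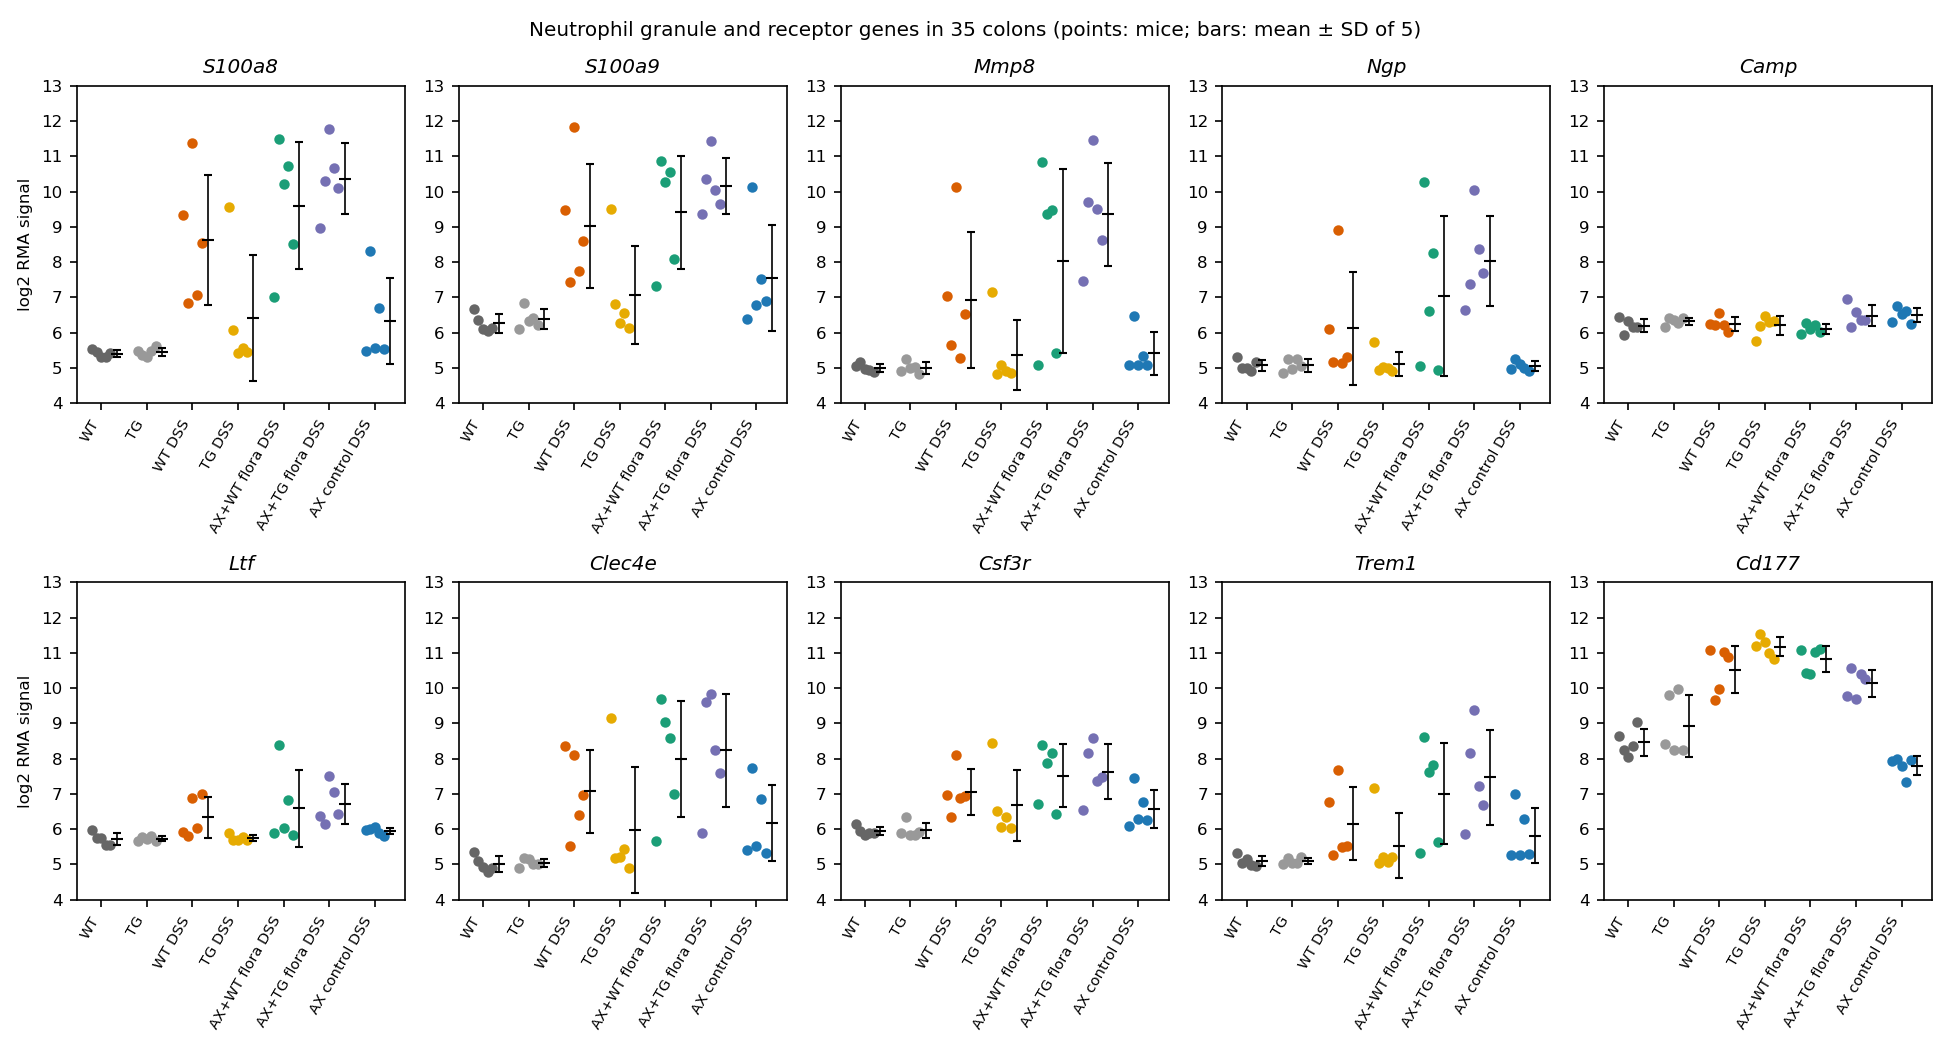
Log2 signal of each gene (vertical axis, same scale in every panel) in the 7 groups, with 1 point per mouse and black bars for the mean and SD of 5 mice; AX marks axenic mice. The first 4 panels show 1 mouse of the DSS transgenic group above the other 4. The Cd177 panel shows every conventional DSS mouse and every flora recipient above every axenic control.

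S100a8, which pairs with S100a9 to form the zinc- and calcium-binding calprotectin of the neutrophil cytosol, read 5.54, 5.44, 5.31, 5.32 and 5.41 in untreated wild-type mice WT9, WT8, WT7, WT11 and WT10. In untreated transgenic mice TG631, TG31, TG29, TG28 and TG26 it read 5.49, 5.38, 5.31, 5.48 and 5.62. The untreated genotypes overlapped and spanned less than 0.4 in all.
After DSS, S100a8 read 9.33, 6.85, 11.37, 7.07 and 8.54 in wild-type mice WT65, WT56, WT55, WT53 and WT52, and 9.57, 6.07, 5.43, 5.57 and 5.44 in transgenic mice TG49, TG48, TG47, TG46 and TG44. All 5 DSS wild-type mice lay above all untreated mice, whereas 3 of 5 DSS transgenic mice lay within the untreated range.
In axenic recipients of wild-type flora (WT880, WT793, WT639, WT597 and WT098) it read 7.02, 11.51, 10.22, 10.73 and 8.53, and in recipients of transgenic flora (TG922, TG749, TG713, TG632 and TG446) 8.98, 10.31, 11.79, 10.67 and 10.10. In axenic controls CT677, CT517, CT465, CT229 and CT093 it read 5.47, 8.31, 5.57, 6.70 and 5.55. Every recipient of transgenic flora was above every control, and CT517 was above 1 recipient of wild-type flora.

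S100a9 ran close to its partner. It reached 11.83 in WT55 and 9.50 in TG49, against 7.43 to 9.49 in the other DSS wild-type mice and 6.13 to 6.82 in the other DSS transgenic mice. Among the axenic controls CT517 read 10.13, above 3 of 5 recipients of transgenic flora, and the other controls read 6.39 to 7.53.

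Among the granule genes, Mmp8, a collagenase of specific granules, read 4.83 to 5.27 in untreated mice. It read 7.05, 5.66, 10.14, 5.29 and 6.53 in DSS wild-type mice (order as above), all above the highest untreated mouse though 2 of them by less than 0.4. In DSS transgenic mice it read 7.14 in TG49 and 4.83 to 5.09 in the others.
In axenic recipients of wild-type flora Mmp8 read 5.08, 10.85, 9.36, 9.48 and 5.42, a split of 3 high and 2 low mice. Recipients of transgenic flora read 7.47 to 11.46, and controls 5.07 to 5.34 apart from 6.47 in CT517.
Ngp, neutrophilic granule protein, another specific granule gene, stood above its highest untreated level of 5.31 in 11 of 25 DSS mice. These were WT65 (6.10), WT55 (8.90) and TG49 (5.73), 3 recipients of wild-type flora (6.63 to 10.28) and all 5 recipients of transgenic flora (6.65 to 10.04). No axenic control passed that level.
Ltf, lactoferrin, the iron-binding protein of specific granules, moved least of the inducible genes, with 5.56 to 5.98 in untreated mice and a highest value of 8.40 in WT793. In DSS wild-type mice it was highest in WT52 (7.003) and WT55 (6.90), and in DSS transgenic mice it stayed within 5.69 to 5.90.
Camp, the cathelicidin precursor, read 5.93 to 6.45 in untreated mice and 5.78 to 6.96 in all DSS mice. Its group SDs ranged from 0.11 to 0.31, and the groups overlapped throughout.

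The highest untreated level was exceeded in 21 DSS mice for Clec4e, 19 each for Csf3r, S100a8 and S100a9, and 17 each for Trem1 and Mmp8. It was exceeded in 16 for Cd177, 14 for Ltf, 11 for Ngp and 7 for Camp. The same was not counted over all genes. Clec4e (Mincle, a receptor for glycolipids and signals of dead cells) read 4.80 to 5.36 in untreated mice and 8.37, 5.53, 8.11, 6.39 and 6.96 in DSS wild-type mice. In DSS transgenic mice it read 9.17, 5.19, 5.21, 5.45 and 4.90, so that TG49 was above every DSS wild-type mouse.
Csf3r, the receptor for the neutrophil growth factor G-CSF, read 5.83 to 6.33 in untreated mice, 6.34 to 8.12 in DSS wild-type mice and 6.05 to 6.53 in DSS transgenic mice other than TG49 at 8.45. Trem1, an amplifier of inflammatory signalling, read 4.95 to 5.31 in untreated mice. After DSS it read 6.78, 5.28, 7.68, 5.50 and 5.52 in wild-type mice and 7.16 in TG49 against 5.05 to 5.21 in the other transgenic mice.
In axenic mice both receptors were lowest among recipients in WT880, WT098 and TG922. Trem1 read 5.34, 5.63 and 5.87 in these mice against 6.69 to 9.38 in the other 7, and controls CT517 and CT229 read 6.99 and 6.28 against 5.26 to 5.30 in the other controls.

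Cd177, a surface antigen of neutrophils held by a lipid anchor, followed none of this. Its mean in untreated mice stood at the 84.6th percentile of all genes, against 8.2 to 38.5 for the other members. Which cells gave this signal was not tested, and its value as a neutrophil measure is uncertain here. Without DSS Cd177 read 8.64, 8.26, 8.03, 8.37 and 9.03 in wild-type mice and 8.41, 9.80, 8.24, 9.97 and 8.25 in transgenic mice, where TG31 and TG28 stood apart. After DSS it read 11.09, 9.66, 9.97, 11.03 and 10.88 in wild-type mice and 11.21, 11.54, 11.30, 11.003 and 10.83 in transgenic mice. The 4 transgenic mice with low S100a8 thus had Cd177 on either side of TG49, within 0.4 of it.
In the axenic groups it read 10.39 to 11.13 in recipients of wild-type flora, 9.69 to 10.58 in those of transgenic flora and 7.34 to 7.998 in controls. The controls lay below all other mice, untreated mice included, although CT517 and CT229 carried high S100a8, S100a9, Clec4e and Trem1.

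Ranked by group mean, neighbouring groups differed by less than the larger of their SDs in 55 of 60 neighbouring pairs over the 10 genes. The exceptions were S100a8 (DSS wild-type 8.63 over DSS transgenic 6.42), Ltf and Csf3r (axenic controls over the next group) and Cd177 in 2 places. Only for Cd177, between untreated wild-type mice and axenic controls, were the values of neighbouring groups fully apart.

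Whether DSS changed these genes in wild-type mice was asked with linear models with moderated variance in limma, with p-values adjusted over all 19908 genes and called under 0.05. S100a8, S100a9, Clec4e, Csf3r and Cd177 rose, 5 of 10, where 5.13% of all genes were called in either direction. The log2 differences were 3.23 for S100a8 (SE 0.70, adjusted p = 0.0254), 2.76 for S100a9 (SE 0.68, adjusted p = 0.0411), 2.06 for Clec4e (SE 0.46, adjusted p = 0.0289), 1.11 for Csf3r (SE 0.26, adjusted p = 0.0353) and 2.06 for Cd177 (SE 0.30, adjusted p = 0.00447). In 6 of 10 genes the groups did not overlap (these 5 and Mmp8), against 6.16% of all genes. Mmp8 differed by 1.93 (SE 0.73, adjusted p = 0.193), Ngp by 1.05 (SE 0.61, adjusted p = 0.493), Ltf by 0.61 (adjusted p = 0.203) and Trem1 by 1.07 (adjusted p = 0.191), and none of these passed. The median difference was 1.52 over the 10 genes and -0.02 over all genes.
Without WT55, the highest mouse, the Ngp difference was 0.35 and the Mmp8 difference 1.13, while S100a8 stayed called at 2.54 (adjusted p = 0.00804). With the posterior Hox level added as a covariate none of the 10 was called (Cd177 2.40, adjusted p = 0.0920; S100a8 2.41, adjusted p = 0.231). Hox level did not overlap between these groups, so its part and that of DSS cannot be told apart in these 10 mice. With 1 mouse left out the count ran from 1 to 5. It was 1 without untreated WT8, WT7, WT11 or WT10 or DSS WT65 or WT52, and 3 without WT9. The share of all genes called with a mouse left out is not given beside these counts.

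**Figure D2:**
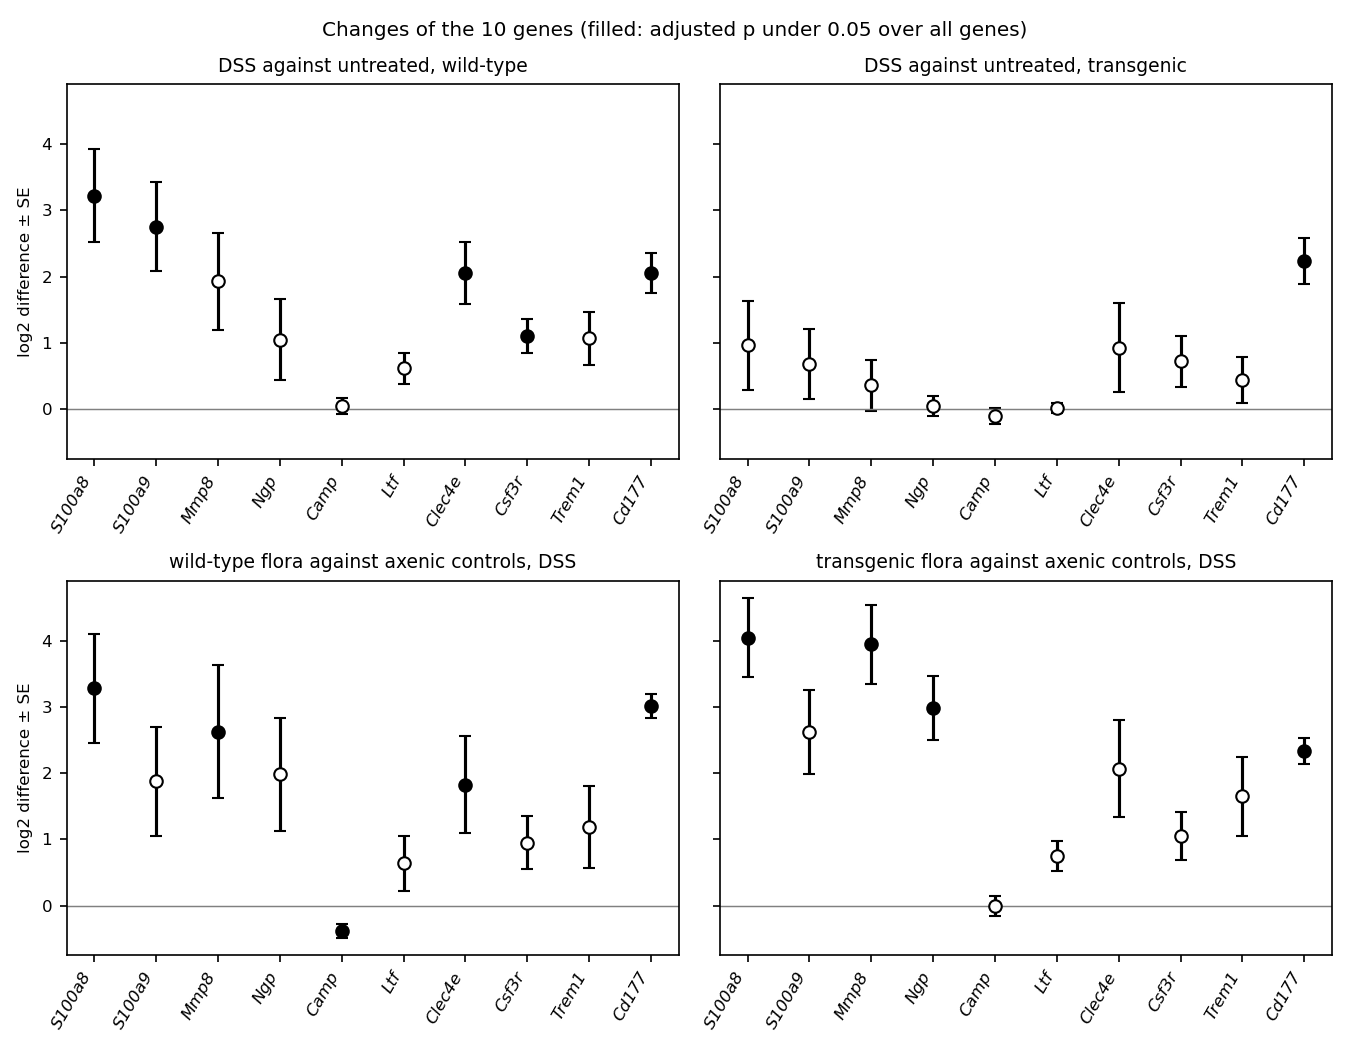
Log2 difference with its moderated SE (vertical axis) of each gene in the 4 comparisons with DSS or flora, from limma; filled points passed an adjusted p under 0.05 over all genes. Cd177 is filled in all 4 panels, and Camp lies near 0 apart from -0.38 with wild-type flora.

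In transgenic mice DSS raised Cd177 by 2.24 (SE 0.35, adjusted p = 0.0104, limma), and this was the 1 call among the 10 genes, where 4.55% of all genes were called. It was also the 1 gene without overlap, against 8.70% of all genes. S100a8 differed by 0.96 (SE 0.67, adjusted p = 0.361), S100a9 by 0.68 (adjusted p = 0.415), Clec4e by 0.93 (adjusted p = 0.378) and Csf3r by 0.72 (adjusted p = 0.250). These values rested on TG49. Without it they were 0.17 for S100a8, 0.07 for S100a9, 0.13 for Clec4e and 0.28 for Csf3r, and Cd177 stayed at 2.23. With the within-array SD as a covariate the S100a8 difference was -0.08 and that of Trem1 -0.04. The array of TG49 had the highest within-array SD of its group (2.02, others 1.83 to 1.90), and its macrophage and monocyte genes (mean of 11 genes) read 8.11 against 7.35 to 7.45. The part of the macrophage genes in the level of the 10 genes was not tested.

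Whether the genotypes responded differently to DSS was asked with the interaction term. It called none of the 10 genes (0.156% of all genes), and 3 had an unadjusted p under 0.05 in limma: S100a8 (-2.26, SE 1.05, adjusted p = 0.644), S100a9 (-2.08, SE 0.93, adjusted p = 0.608) and Ltf (-0.60, SE 0.26, adjusted p = 0.572). The values for Mmp8, Ngp, Clec4e and Trem1 were -1.57, -1.0, -1.13 and -0.63, with SEs of 0.57 to 0.89, and that for Cd177 was 0.18 (SE 0.49). Without TG49 the S100a8 term was -3.05 (adjusted p = 0.202), and without WT55 it was -1.58 (adjusted p = 0.967).
Transgenic and wild-type mice were also compared directly. Without DSS 0 of 10 genes were called (0.0753% of all genes), 0 had an unadjusted p under 0.05 and 0 did not overlap (1.12% of all genes). Differences ran from -0.00 for Ngp to 0.47 for Cd177 (SE 0.36), which was -0.05 with the Hox covariate. With DSS 0 of 10 were called by limma (0.00502% of all genes, 1 gene), 0 did not overlap (1.57% of all genes) and 4 had an unadjusted p under 0.05. These were S100a8 (-2.21, SE 0.98, adjusted p = 0.941), S100a9 (-1.96, adjusted p = 0.930), Ltf (-0.58, adjusted p = 0.820) and Cd177 (0.65, SE 0.28, adjusted p = 0.917). The Hox covariate turned the sign for Mmp8 (-1.57 to 0.45), Ngp (-1.0 to 0.79), Trem1 (-0.62 to 0.61) and Cd177 (0.65 to -0.10). Hox level did not overlap between the DSS genotypes (6.37 to 6.80 in wild-type, 6.87 to 7.02 in transgenic mice). Its part and that of genotype therefore cannot be told apart in these mice. These comparisons share mice with those of DSS within each genotype.

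Under DSS, recipients of flora were compared with the axenic controls, which both comparisons share and which may or may not have carried flora. With wild-type flora Cd177 rose by 3.01 (SE 0.18, adjusted p = 1.51e-05), S100a8 by 3.28 (SE 0.82, adjusted p = 0.00532), Mmp8 by 2.63 (SE 1.01, adjusted p = 0.0369) and Clec4e by 1.83 (SE 0.74, adjusted p = 0.0450), all from limma. Camp fell by 0.38 (SE 0.11, adjusted p = 0.0105), which was -0.16 (adjusted p = 0.281) after quantile normalization. That normalization also ended the calls of Mmp8 (2.62, adjusted p = 0.0506) and Clec4e (1.69, adjusted p = 0.0970). With the Hox level as covariate S100a8 was at 1.62 (adjusted p = 0.143), Mmp8 at 0.96 (adjusted p = 0.512) and Clec4e at 0.18 (adjusted p = 0.846). This made 5 of 10 called, but 67.3% of all genes were called in this comparison, so the count is below the background. In 1 of 10, Cd177, the groups did not overlap, against 44.7% of all genes. S100a9 (1.88, adjusted p = 0.0617), Ngp (1.98, adjusted p = 0.0573), Csf3r (0.95, adjusted p = 0.0515), Trem1 (1.18, adjusted p = 0.106) and Ltf (0.64, adjusted p = 0.184) did not pass.
The low recipients WT880 and WT098 set these values: without either, 9 of 10 genes were called, and without WT793, WT639, WT597, CT677, CT465 or CT093 3 were. The share of all genes called without these mice is not given here, so these counts have no background beside them. With the within-array SD as a covariate none was called, with values of 3.05 for Cd177 (adjusted p = 0.415) and 3.00 for S100a8. That SD did not overlap between the groups (1.90 to 2.03 against 1.64 to 1.78), so its part and that of flora cannot be told apart here.
With transgenic flora S100a8 rose by 4.05 (SE 0.60, adjusted p = 0.0162), Mmp8 by 3.95 (SE 0.60, adjusted p = 0.0193), Ngp by 2.99 (SE 0.49, adjusted p = 0.0283) and Cd177 by 2.33 (SE 0.19, adjusted p = 0.000323) in limma. These were 4 of 10 genes where 0.337% of all genes were called. The groups did not overlap in 5 genes, these and Ltf (0.75, adjusted p = 0.151), against 2.75% of all genes. S100a9 (2.62, adjusted p = 0.107), Clec4e (2.07, adjusted p = 0.191), Csf3r (1.06, adjusted p = 0.187) and Trem1 (1.65, adjusted p = 0.197) overlapped the controls, through CT517 and, for all but S100a9, CT229. The count of called genes was 9 without TG922, the array with a within-array SD of 1.66, and 1 or 2 without TG749, TG632, TG446, CT677, CT465 or CT093. Here too the share of all genes called without these mice is not given. Cd177 alone stayed called with the Hox level or the within-array SD as a covariate.

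The source of the flora was asked by comparing recipients of transgenic and wild-type flora. None of the 10 genes was called by limma (0% of all genes), 0 did not overlap (7.43% of all genes), and 2 had an unadjusted p under 0.05. Cd177 differed by -0.68 (SE 0.21, adjusted p = 0.0778) and Camp by 0.37 (SE 0.14, adjusted p = 0.107). Both were called with array weights and without TG749 (adjusted p = 0.0319 for Cd177 and 0.0422 for Camp). Mmp8 differed by 1.32 with an SE of 1.13, Ngp by 1.00 with an SE of 0.98 and S100a8 by 0.77 with an SE of 0.78, each close to its SE. S100a8 had an SD of 1.81 with wild-type flora and 1.01 with transgenic flora, and no test of that difference was made.

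**Figure D3:**
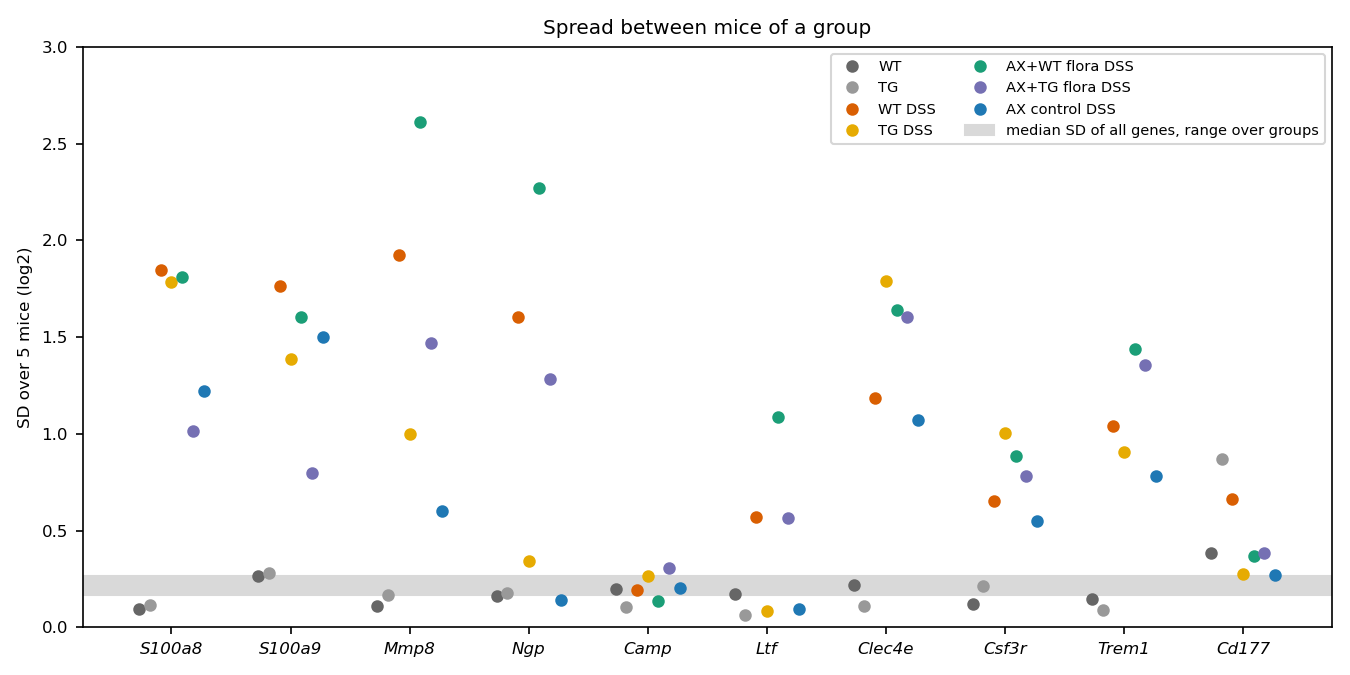
SD over the 5 mice of a group (log2, vertical axis) for each gene, coloured by group; the grey band is the range over groups of the median SD of all genes, 0.166 to 0.268. S100a8, S100a9, Mmp8, Clec4e, Csf3r and Trem1 lie above the band in all 5 DSS groups, whereas Ltf lies above it in 3 and below it in 2 of them, and Camp ranges from 0.11 to 0.31.

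Most of these genes, though not Camp, were uneven between mice under DSS. This was not theirs alone: SDs in DSS wild-type and transgenic mice were 1.21 and 1.69 for Lcn2 and 1.44 and 1.16 for Cxcr2. The primary granule gene Mpo stayed even (0.23 and 0.11). Without DSS the median SD of the 10 genes was 0.17 in wild-type and 0.14 in transgenic mice, where all genes had 0.20 and 0.17. In DSS wild-type mice it was 1.11 against 0.27, and in DSS transgenic mice 0.95 against 0.18. In the axenic mice it was 1.52 against 0.17 for recipients of wild-type flora, 0.91 against 0.24 for those of transgenic flora and 0.58 against 0.19 for controls. Of the 10 genes, 6 were in the top 1% of all genes by SD in each DSS group of conventional mice, 8 among recipients of wild-type flora, 5 among those of transgenic flora and 3 in controls. In untreated mice it was 0 in wild-type and 1 in transgenic mice, Cd177 with an SD of 0.87.
Counted per mouse, 8, 5, 9, 8 and 8 of the 10 genes exceeded the highest untreated mouse in DSS wild-type mice, and 8, 3, 2, 2 and 1 in DSS transgenic mice. All 5 recipients of transgenic flora had 9, recipients of wild-type flora had 6, 9, 9, 9 and 7, and controls had 2, 8, 3, 7 and 1. The mice with 7 or more were thus found in every DSS group. How many of all genes passed their highest untreated mouse was not counted, so these counts have no background beside them.

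Within groups, the same mice were high for most genes. Deviations of each gene from its group mean were correlated with those of S100a8 over 35 mice, with labels permuted within groups 100000 times. Pearson's r was 0.965 for S100a9 (Spearman's rho 0.939), 0.900 for Mmp8 (0.898), 0.771 for Ngp (0.771), 0.909 for Clec4e (0.917), 0.909 for Csf3r (0.897) and 0.910 for Trem1 (0.907). Each had a permutation p of 1e-05 for r, the smallest that these permutations can give, and 1.5e-05 after adjustment over the 9 relations. For Ltf r was 0.576 (permutation p = 0.004, adjusted 0.0052) and rho 0.543 (permutation p = 0.0072). Without TG49 and WT55, the mice farthest from the median in S100a8, r ranged from 0.602 for Ltf to 0.952 for S100a9 among these 7 genes. Within the 20 conventional mice r ran from 0.513 (Ltf) to 0.973 (S100a9), and within the 15 axenic mice from 0.669 to 0.959. TG49 and WT55, which deviated by 3.16 and 2.74 in S100a8, are both conventional and were not left out there.
Cd177 and Camp did not follow. For Cd177 r was -0.104 (permutation p = 0.56) and rho -0.122 (permutation p = 0.49), and for Camp r was 0.069 (permutation p = 0.72) and rho 0.163 (permutation p = 0.39). Camp instead deviated with the within-array SD, the only one of the 10 genes to do so after adjustment. Its r with that SD was -0.667 (permutation p = 0.00031, adjusted 0.0031) and its rho -0.571 (permutation p = 0.0015, adjusted 0.015), with r of -0.537 without the 2 mice of most extreme SD, -0.694 in conventional and -0.644 in axenic mice. For the other 9 genes r with the array SD lay between -0.020 and 0.349, with adjusted permutation p of 0.34 or more.

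**Figure D4:**
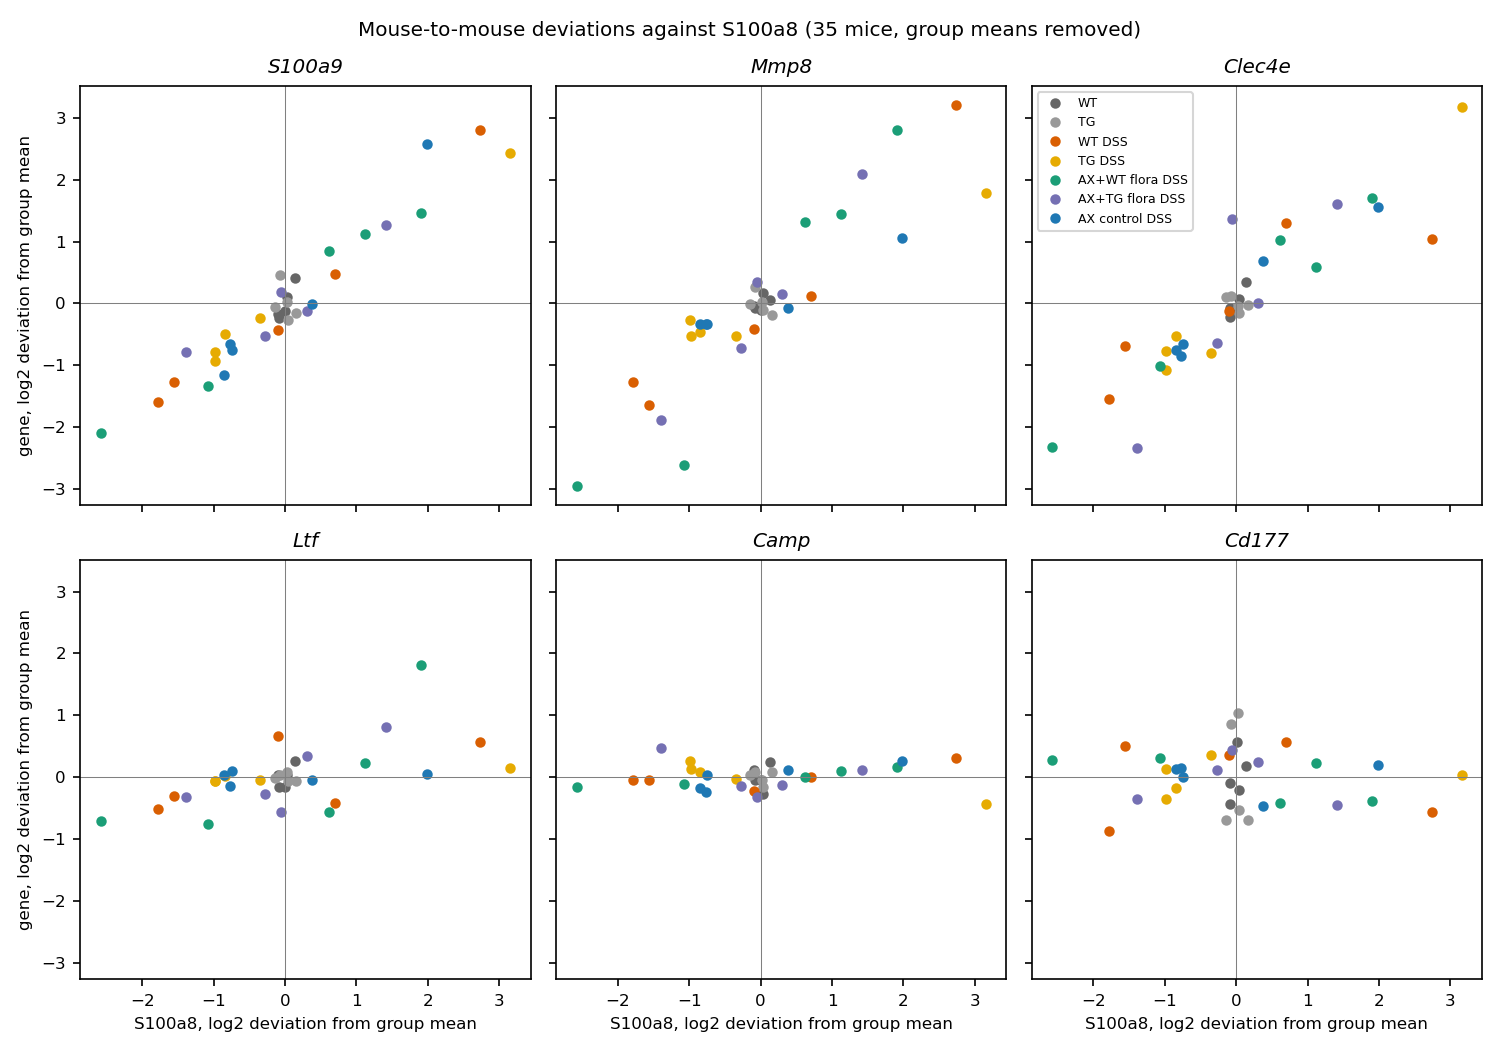
Deviation of a gene from its group mean (vertical axis, log2) against that of S100a8 (horizontal axis, log2) for 35 mice, coloured by group. S100a9, Mmp8 and Clec4e rise along with S100a8 (r of 0.965, 0.900 and 0.909), Ltf less closely (0.576), and Camp and Cd177 show no slope (0.069 and -0.104).

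Correlations between the other pairs, over the same 35 mice and given as descriptions, did not follow the division into granule and receptor genes. Mmp8 lay closest to the receptor Trem1 (r = 0.933), then to Ngp (0.915), and less close to Clec4e (0.829) and the granule gene Ltf (0.692). Ngp lay near Ltf (0.834) and Trem1 (0.820) and farther from Clec4e (0.644).

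The genes with deviations most like each member, among all genes measured, were ranked by Pearson's r over the 35 mice. For S100a8 they were Retnlg (a resistin-like neutrophil product, 0.967), S100a9, Cxcr2 (a chemokine receptor that draws neutrophils, 0.942), Alox5ap (needed to make leukotrienes, 0.939) and Lcn2 (lipocalin, which binds bacterial siderophores, 0.938). For Trem1 they were Cxcr2 (0.965), Hdc (histamine synthesis, 0.964), Mmp9, Cd33 and Selenon. For Clec4e they were Acod1, its neighbour Clec4d, Il1f9, Plek and Il1a (0.952 to 0.959), and for Csf3r Nlrp3, Il1f9, Hdc, Itgam and Trem1 (0.923 to 0.950). Mmp8 was nearest to Ifitm6 (0.972) and Ngp to Pygl (0.950).
Cd177 had no close match: Ceacam10 came first at 0.795, then Slc39a11, Slc17a9, Ptprh and Lpin2 (0.723 to 0.735). Those of Camp (0.819 to 0.831) included Rag1, the lymphocyte recombinase, and Prl, the pituitary hormone prolactin.

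Other neutrophil genes were grouped in the same way. The primary granule genes Mpo, Elane, Prtn3 and Ctsg, transcribed in marrow precursors, read between 4.89 and 6.92 in all mice, and 0 of 4 rose in any comparison. Ctsg (-0.59) and Mpo (-0.42) fell with wild-type flora (adjusted p = 0.000437 and 0.00500, limma), the comparison in which most genes were called. With DSS in wild-type mice, where 5.13% of all genes were called, 6 of 12 other granule and secreted genes rose, among them Lcn2 by 3.47 and Hp by 3.19, as did 7 of 22 other receptors, with Itgb2 (an integrin subunit) at 1.31 and Pilra at 1.56, and 4 of 11 cytosolic and oxidase genes, with Retnlg at 2.73. Of 7 genes listed with Clec4e and Trem1 signalling 4 rose, the adaptors Fcer1g by 2.09 and Tyrobp by 1.56, the kinase Syk by 1.06 and Clec4n, itself a lectin receptor, by 1.45.
With DSS in transgenic mice, where 4.55% of all genes were called, 3 of 12 granule and secreted genes rose (Pglyrp1 by 1.00, Cyba by 1.097 and Cybb by 1.66), 1 of 22 receptors (Selplg by 0.92, a share near that of all genes), 1 of 11 cytosolic genes (Dgat2 by 0.63) and 3 of 7 signalling genes (Fcer1g by 1.70, Tyrobp by 1.22 and Syk by 0.87). These 3 genes and both oxidase subunits are shared with macrophages, of whose genes C1qa (0.98), C1qb (1.01) and Csf1r (1.02) rose and Cd163 fell by 0.36, out of 11. In wild-type mice C1qa and Adgre1 rose with DSS (1.09 and 0.83), 2 of 11. The part of macrophages in the levels of the 10 genes was not tested.
With transgenic flora 4 of 12 granule and secreted genes rose (Lcn2 by 3.89, Lrg1 by 2.80, Chil3 by 2.42 and Pglyrp1 by 1.44), 1 of 11 cytosolic genes (Retnlg by 3.59) and 0 of 22 receptors, 0 of 7 signalling genes and 0 of 11 macrophage genes. With wild-type flora 8 of 12, 11 of 22, 7 of 11 and 6 of 7 rose, and 1, 2, 1 and 0 fell. These counts are read against the 67.3% of all genes called in either direction. None of these lists held a call in the interaction, genotype or donor comparisons.
Signals that recruit neutrophils rose in 4 of 14 cases with DSS in wild-type mice, Il1b by 3.87, Il1a by 2.51, the chemokine Cxcl2 by 2.01 and Tnf by 1.03, and in 0 of 14 in transgenic mice. With wild-type flora 1 of 14 rose and 4 fell, where 67.3% of all genes were called in either direction. With transgenic flora 0 of 14 were called. Cxcl2 read 9.33 in TG49 and 5.13 to 5.55 in the other DSS transgenic mice, 9.15 in WT55, and 10.78 in CT517, the highest of all 35 mice. In CT517 surface colonocyte genes (mean of 8 genes) were at 8.75, the lowest of all DSS mice, and in CT229 at 9.29, against 10.56 to 10.83 in the other controls. In WT55 they were at 9.68 against 10.70 to 10.95 in its group, while in TG49 they were at 10.95 within a group range of 10.86 to 11.03. The part of the surface colonocytes in the levels of the 10 genes was not tested.
The probe set of Ly6g, the surface antigen used to sort mouse neutrophils, read 11.30 to 11.89 in untreated wild-type mice and 8.44 to 12.93 in all mice. Group means were 11.62 in untreated and 11.61 in DSS wild-type mice, and 10.25 (SD 1.35) and 11.54 in transgenic mice. Recipients of wild-type and transgenic flora averaged 11.51 and 12.24, and axenic controls 11.64. The gene belongs to a family of related Ly6 genes. Whether the probe set also reads those was not tested, and its value is uncertain as a neutrophil measure.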

How the data were processed

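Colon RNA of 35 mice was measured on 35 arrays. The deposited log2 signal was made by the authors with RMA in Affymetrix Expression Console 1.1, per the submitters' processing notes. RMA compresses low signal, so low-level changes are understated. Of 28090 probe sets, 21639 had 1 gene symbol, and genes with several (990) took the one of highest mean, leaving 19908 genes. Array depth does not apply, and the 5 mice a group limit precision. Linear models were fitted to the arrays of each comparison with limma 3.58.1 (R 4.3.3), two-sided, and Benjamini-Hochberg adjusted over all genes. Calls were tested on simulated data with the same normal spread in every group and independent genes. That setting does not cover the uneven spread of these genes. The members and lists (20 lists, 171 of 187 genes measured) were chosen with earlier results of these data known. Named were all members, up to 4 genes of smallest p per list and comparison, the 4 primary granule genes and the 5 genes most like each member (predicted names left out); some further genes of these lists are named by level after their values were seen. Alternatives were array weights, 1 model for all arrays, quantile normalization, a trended robust variance, a filter at the 40th percentile, Hox, Xist and within-array SD covariates, and leaving out each mouse. Nothing in the labels says mice were housed separately, so p-values measure the spread between these mice.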

Additional observations from a re-analysis of the deposited data

Results flagged for a closer look

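In 70 sets of 5 mice (10 genes in 7 groups), a gap of more than 0.71 of the range was looked for at either end. Chance gives such a gap in about 1 of 20 sets of normal values. It was found in 10 sets, each time between the highest mouse and the next. Of these, 7 were the same mouse, TG49 of the DSS transgenic group, with S100a8 at 9.57 (next mouse 6.07), S100a9 at 9.50 (6.82), Mmp8 at 7.14 (5.09), Ngp at 5.73 (5.03), Clec4e at 9.17 (5.45), Csf3r at 8.45 (6.53) and Trem1 at 7.16 (5.21). Since these genes move together, the 7 are not independent. The others were Ngp at 8.90 in DSS WT55 (next 6.10), Mmp8 at 6.47 in axenic control CT517 (5.34) and Csf3r at 6.33 in untreated TG31 (5.93). TG31 had the lowest within-array SD of its group, 1.73. No explanation of these values was tested.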

How the results depend on the processing

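No paired analysis was possible because the mouse numbers in the titles are not shared between the groups compared. The number of the 10 genes called was within 1.5 times the main count in 57 of 69 other settings, leaving out mice aside. This total includes comparisons with a main count of 0 or 1, where no or few calls could be lost. Most of the 12 settings that moved were in the comparisons with 4 or 5 calls. For DSS in wild-type mice 5 became 3 with all 35 arrays in 1 model, 3 with the Xist level as a covariate and 0 with that of the posterior Hox genes. For wild-type flora 5 became 8 with all arrays in 1 model, 2 with quantile normalization, 3 with a trended robust variance, 2 with the Hox level and 0 with the within-array SD. For transgenic flora 4 became 9 with array weights, 1 with the Hox level and 1 with the within-array SD, and for the donors of flora 0 became 2 with array weights. With each mouse left out the count ran from 1 to 5 for DSS in wild-type mice, 0 to 2 for the donors (2 without TG749), 3 to 9 for wild-type flora and 1 to 9 for transgenic flora. It stayed at 1 for DSS in transgenic mice and at 0 for the interaction and both genotype comparisons. The share of all genes called in each of these settings is not given here, so these counts have no background beside them.

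Single changes at least as large as their SE kept direction and call in 409 of 460 settings, lost the call in 28 and gained it in 14. Signs turned in 9. With the Hox level these were Ngp with DSS in wild-type mice (-0.027), Cd177 between untreated genotypes (-0.053), and Mmp8 (0.45), Ngp (0.79), Trem1 (0.61) and Cd177 (-0.10) between genotypes under DSS. With the within-array SD they were S100a8 (-0.085) and Trem1 (-0.043) with DSS in transgenic mice and Ltf with wild-type flora (-0.16). Leaving out a mouse turned 0 of 630 and ended a call in 59. The correlation of Camp with S100a8 was -0.193 in conventional mice. The cause was not tested in any of these cases. Covariates that separate the groups compared, as Hox and within-array SD did in some comparisons, leave little of the contrast to test, and the files give no detection call, so how far the low levels of untreated mice stand above background is unknown.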
